A study of Mus musculus with 12 samples.

Results

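The 52 genes described here encode the TGF-beta and BMP signalling system of the mouse: ligands, latent binding proteins, receptors, antagonists, SMAD proteins and the ID target genes. They were chosen by symbol from a list, all 52 were matched through GENCODE M21 to the 53379 gene IDs of each count table, and all 52 passed the filter on low counts. RNA was measured by bulk sequencing of skin from 3-month-old mice of strain C57BL/6 & B6D2, in 12 libraries that form 4 groups of 3. Control mice carried Prss56Cre and R26tdTom, a Cre recombinase driven by the Prss56 promoter and a Cre-dependent red reporter. Nf1-KO mice carried both of these and Nf1flox/-, 1 floxed and 1 null allele of the gene for neurofibromin, a brake on RAS. Both genotypes were sampled in uninjured skin and in skin 14 days after injury. Every group therefore carried the Cre and the reporter, the null allele is present in all cells of the knockout mice, and the skin held cells outside the Cre lineage. The series title names boundary cap cells, which give rise to Schwann cells, as the knockout's lineage. The labels number the libraries but do not call them separate animals, so the p-values measure only the spread between these libraries, which may be technical.

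TGF-beta family ligands are secreted as dimers, and TGF-beta itself is stored in the matrix in a latent complex with its LTBP partners. Type II receptors bind the ligand and activate type I receptors, which phosphorylate SMAD2 and SMAD3 in the TGF-beta and activin arm or SMAD1, SMAD5 and SMAD9 in the BMP arm. These join SMAD4 and move to the nucleus, while SMAD6, SMAD7, BAMBI, SKI and SKIL restrain the pathway. In skin, TGF-beta and activins are known for wound repair and matrix production, and BMPs for the timing of hair growth and the differentiation of the hair shaft.

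Several features of the libraries moved with skin state. Library totals ran from 8817013 to 16809687 counts. The uninjured libraries had 0.709 to 2.95 raw CPM (counts scaled to library size) of Xist, which is made in female cells, and the injured libraries 436 to 627. The Y-linked Ddx3y was at 68.2 to 93.3 and at 0 to 0.0595 CPM. By these markers the uninjured libraries were male and the injured ones female, so sex and injury cannot be told apart. No member lies on a sex chromosome, but the position of a gene does not separate sex from injury. Nasal receptor genes, a measure of background, had 0.0944 to 0.332 CPM per exonic kb in uninjured and 0.00224 to 0.0531 in injured libraries. Keratin genes that define skin were detected throughout. Krt14 was at 3586 to 8819 CPM in uninjured and 4052 to 7933 in injured libraries. Krt5 was lower in injured libraries, at 4718 to 6654 CPM in uninjured and 2040 to 3315 in injured ones. Krt15 was lower too, at 4800 to 8976 and 715 to 1742 CPM. The summed level of 19 genes of the growing hair follicle, none at 0 in all libraries, was 71.9 to 152 CPM in uninjured and 11118 to 35543 in injured libraries. Fibroblast and dermal matrix genes summed to 1137 to 3526 and to 5595 to 16957 CPM, macrophage genes to 107 to 173 and to 290 to 1007. Basal keratinocyte genes summed to 18788 to 23844 and to 7341 to 12647 CPM. The share of ribosomal RNA-like genes was 0.355% to 0.886% of counts in uninjured and 0.814% to 2.00% in injured libraries. Nf1 itself was at 8.75 to 16.6 TMM-normalised CPM over all libraries. It was not called between genotypes (log2 difference -0.31 ± 0.28 SE in uninjured and -0.11 ± 0.28 in injured skin). Gene counts do not tell the alleles apart, so the genotype was not checked.

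Promoter sequence was read for the members that appear in a RefSeq table of mouse promoters (GRCm38.p6), which covers 250 bases before a gene's start and 50 bases from it. The table held 49 promoters of 37 members. Both SMAD motifs were searched on both strands: the core CAGAC, read as GTCTG on the other strand, and the GC-rich GGCGCC, which reads the same on both and can share at most its end base with the core. No matches overlap in the promoters shown. CAGAC was found in 49.0% of the member promoters and in 49.6% of all 32851 promoters. GGCGCC was found in 32.7% and 11.9%, values given as a description with no test. Some of the member promoters with GGCGCC are overlapping windows of the same gene, as for Ltbp4 and Smad5. GC content was not compared between the member promoters and all promoters. The 4 promoters printed here belong to members that moved with injury in both genotypes: the BMP targets Id2 (chr12:25096043-25096342, minus strand) and Id3 (chr4:136143572-136143871, plus strand), the ligand Gdf10 (chr14:33923337-33923636, plus strand) and the matrix gene Tgfbi (chr13:56609336-56609635, plus strand). Capitals mark the motif matches, and each sequence runs 5′ to 3′ on the strand of its gene.
Id2: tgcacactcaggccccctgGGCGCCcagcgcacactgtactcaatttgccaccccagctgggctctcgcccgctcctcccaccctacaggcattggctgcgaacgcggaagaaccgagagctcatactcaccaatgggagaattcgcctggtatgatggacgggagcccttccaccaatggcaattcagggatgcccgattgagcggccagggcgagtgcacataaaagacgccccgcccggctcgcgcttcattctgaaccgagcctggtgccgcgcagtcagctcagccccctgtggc
Id3: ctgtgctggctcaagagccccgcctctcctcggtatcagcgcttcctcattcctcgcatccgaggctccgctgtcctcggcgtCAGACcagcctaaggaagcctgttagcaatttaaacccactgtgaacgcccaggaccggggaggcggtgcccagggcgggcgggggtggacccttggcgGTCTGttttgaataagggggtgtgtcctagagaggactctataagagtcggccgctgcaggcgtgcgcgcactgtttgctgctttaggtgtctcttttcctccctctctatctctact
Gdf10: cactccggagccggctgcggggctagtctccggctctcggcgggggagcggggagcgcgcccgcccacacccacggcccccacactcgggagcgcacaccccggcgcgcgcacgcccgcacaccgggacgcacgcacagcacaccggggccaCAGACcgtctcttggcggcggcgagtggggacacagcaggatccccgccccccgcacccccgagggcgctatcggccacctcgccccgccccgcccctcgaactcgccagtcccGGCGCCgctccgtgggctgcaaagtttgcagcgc
Tgfbi: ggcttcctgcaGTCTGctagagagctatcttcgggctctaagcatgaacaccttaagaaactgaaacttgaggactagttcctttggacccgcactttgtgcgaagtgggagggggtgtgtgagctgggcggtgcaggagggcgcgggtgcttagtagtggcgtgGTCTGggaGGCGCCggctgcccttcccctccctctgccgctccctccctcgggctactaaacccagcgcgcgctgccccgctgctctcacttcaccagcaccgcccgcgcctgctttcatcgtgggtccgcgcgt
With the first base of the RefSeq transcript as 0 and bases before it negative, Id2 held GGCGCC at -231. Id3 held CAGAC at -167 and GTCTG at -68, and Gdf10 held CAGAC at -98 and GGCGCC at 16. Tgfbi, the only one of these 4 that fell with injury, held GTCTG at -239 and -85 and GGCGCC at -77. Gdf10, which rose, and Tgfbi, which fell, thus each held both motifs in these windows.

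Many of the 52 genes differed between uninjured and injured skin, more of them up than down after injury, in both genotypes. Sex markers differed between the same libraries, so these changes cannot be assigned to injury alone. In control skin, 23 members rose and 5 fell, that is 44.2% and 9.62% of the 52, where 22.8% and 32.5% of all 23635 genes tested were called higher and lower. In Nf1-KO skin, 19 members rose (36.5%) and 4 fell (7.69%), where 19.1% and 18.4% of all genes were called. A gene was called at an adjusted p under 0.05 in edgeR's quasi-likelihood test with Benjamini-Hochberg adjustment over all genes tested. The median log2 fold change of the members was 0.48 in control and 0.57 in Nf1-KO skin, beside -0.21 and -0.09 over all genes. Of the members, 16 rose in both genotypes, 2 fell in both, 10 were called in control skin alone, 5 in Nf1-KO skin alone and 19 in neither. Over all genes tested, 15.8% rose in both, 16.2% fell in both, 23.3% were called in control skin alone, 5.47% in Nf1-KO skin alone and 39.2% in neither. A call in 1 genotype alone does not show a difference between them, which was tested directly and is given further on. In RNA from whole skin, fewer cells of a type and less RNA per cell cannot be told apart. When the ribosomal RNA-like share was added as a covariate, 10 members rose and 2 fell in control skin. In Nf1-KO skin 15 members were then called, of which 2 fell and the others rose. The covariate ended the control calls of Tgfb1, Tgfb2, Inhba, Bmp4, Bmp6, Bmp7, Gdf10, Acvr1b, Acvr2a, Bmpr2, Sostdc1, Smad3, Smad5, Smad9, Ski, Skil and Id1. In Nf1-KO skin it ended those of Tgfb1, Inhba, Bmp2, Bmp6, Acvr1, Tgfbr3, Fstl3, Smad5 and Ski. Without control uninjured libraries 1 and 2, the highest in background, 12 members rose and 3 fell in control skin. Single libraries decided some of the few lower calls: 3 fell in control skin without control uninjured library 2, and in Nf1-KO skin 1 fell without Nf1-KO injured library 1 and 2 without Nf1-KO uninjured library 3.

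**Figure D1:**
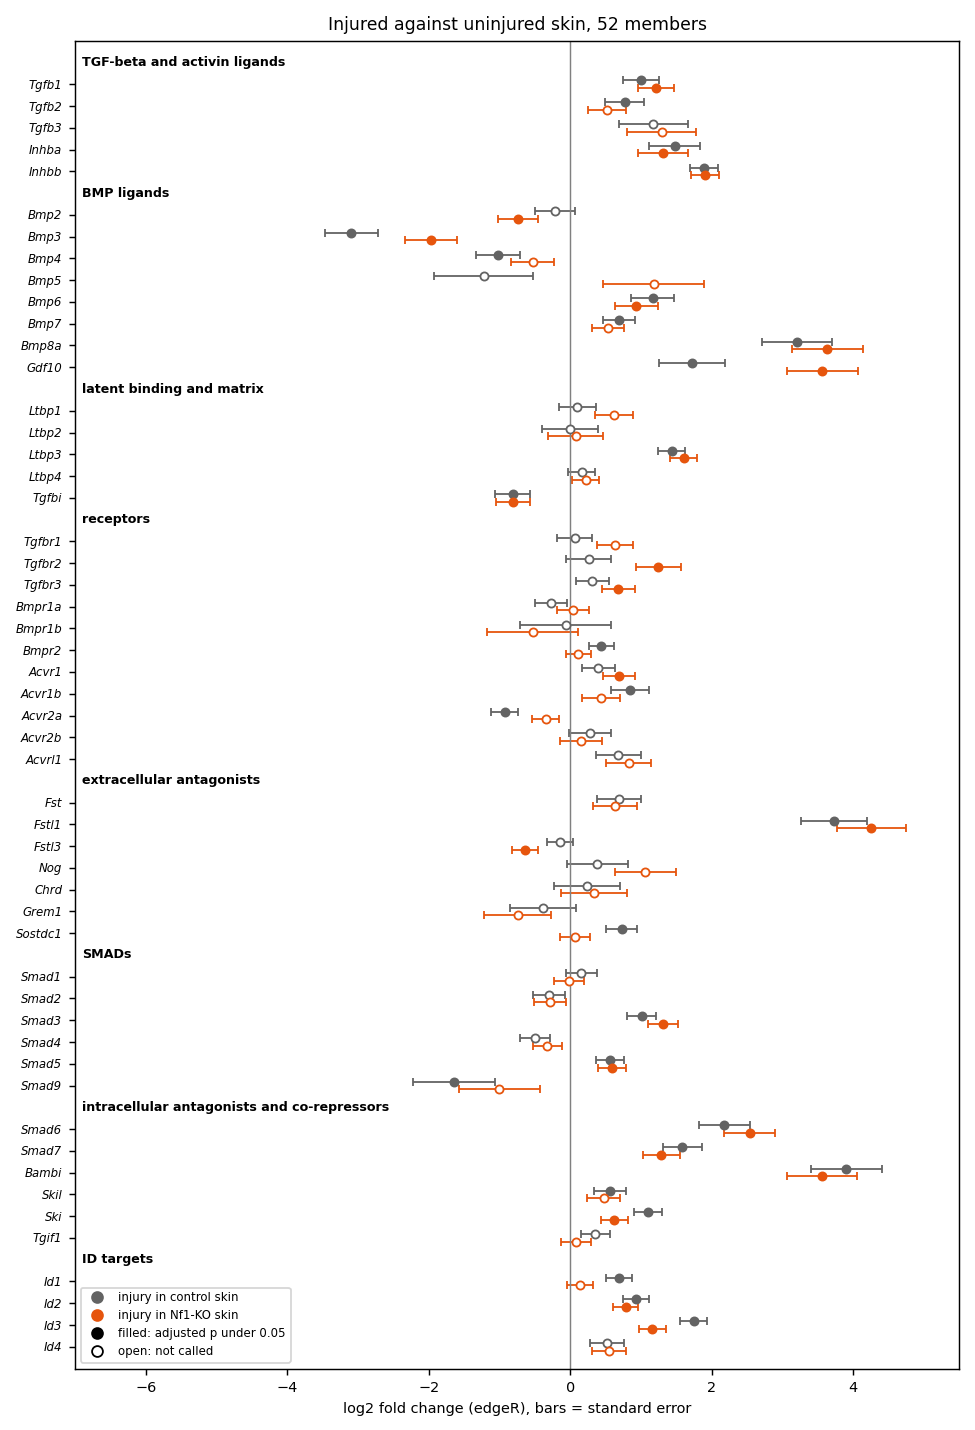
Log2 fold change (horizontal axis) of injured against uninjured skin for each of the 52 members (vertical axis, grouped by role), in control skin (grey) and Nf1-KO skin (orange). Bars are standard errors, filled points were called at adjusted p under 0.05, and the called values run from -3.09 for Bmp3 to 4.26 for Fstl1.

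Among the ligands of the TGF-beta and activin arm, 4 of 5 rose in control skin and 3 of 5 in Nf1-KO skin, and none fell. Over all genes, 22.8% and 19.1% were called higher. The clearest of these ligands was Inhbb (chromosome 1, 119415465 to 119422248, mm10), the gene of the activin beta B subunit. It stood at 11.9, 9.06 and 10.5 TMM-normalised CPM in control uninjured libraries 1 to 3 and at 42.4, 37.4 and 37.2 in control injured ones. Its levels were 8.60, 8.35 and 10.8 in Nf1-KO uninjured and 31.1, 40.6 and 32.1 in Nf1-KO injured libraries. Every injured library was thus well above every uninjured one, whatever the genotype. The increase was 3.72-fold in control skin (log2 fold change 1.89 ± 0.20 SE, adjusted p = 5.49e-06) and 3.75-fold in Nf1-KO skin (log2 fold change 1.91 ± 0.20 SE, adjusted p = 3.92e-06). Inhba, the gene of the activin beta A subunit that is known to rise in skin wounds, stood at 5.74, 6.29 and 4.23 CPM in control uninjured and 14.2, 19.3 and 11.6 in control injured libraries. In Nf1-KO skin it stood at 4.39, 4.21 and 10.1 before and 14.9, 10.7 and 20.6 after injury. The Nf1-KO groups nearly met, since uninjured library 3 reached 10.1 and injured library 2 only 10.7, and the call there ended without Nf1-KO uninjured library 2 (log2 1.06, adjusted p = 0.0554). The control call ended with the ribosomal RNA-like covariate (log2 0.76, adjusted p = 0.259). The log2 fold change of Inhba was 1.47 ± 0.36, adjusted p = 0.00271 in control and 1.30 ± 0.35, adjusted p = 0.00958 in Nf1-KO skin.

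Tgfb1, the TGF-beta that immune cells and platelets carry in abundance, stood at 11.7, 12.6 and 14.0 CPM in control uninjured and 20.4, 29.4 and 26.6 in control injured libraries. In Nf1-KO skin the values were 13.5, 12.3 and 17.3 before and 28.7, 23.6 and 47.9 after injury, with injured library 3 far above the others. The groups did not overlap in either genotype, and Tgfb1 rose in both (log2 fold change 1.00 ± 0.26 SE, adjusted p = 0.00404 in control, 1.21 ± 0.26, adjusted p = 0.00188 in Nf1-KO). Without control uninjured libraries 1 and 2 the call in control skin ended (log2 0.87, adjusted p = 0.117). Tgfb2, at 10.7, 10.4 and 8.46 CPM in control uninjured and 13.2, 20.96 and 16.04 in control injured libraries, was called in control skin only (log2 fold change 0.77 ± 0.27 SE, adjusted p = 0.0255). That call ended without control injured library 2 (log2 0.62, adjusted p = 0.0886) and without control uninjured library 2 (log2 0.81, adjusted p = 0.052). In Nf1-KO skin Tgfb2 had a log2 fold change of 0.52 ± 0.27, adjusted p = 0.14. Tgfb3, the third isoform, had similar changes of 1.17 and 1.29 that missed the threshold (adjusted p = 0.0601 and 0.0555), and 12.4% of its exonic bases are shared with predicted genes. Both Tgfb3 changes were called with DESeq2, with a replicate block and without a filter on low counts. Per exonic kb, Tgfb3 was the most abundant of these 5 ligands in uninjured skin, at 3.29 ± 1.38 CPM per kb in control and 4.33 ± 1.99 in Nf1-KO skin (SD, n = 3), and the standard deviations of Tgfb3, Tgfb1 (2.53 ± 0.234) and Inhbb (2.47 ± 0.339) overlapped in control skin.

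**Figure D2:**
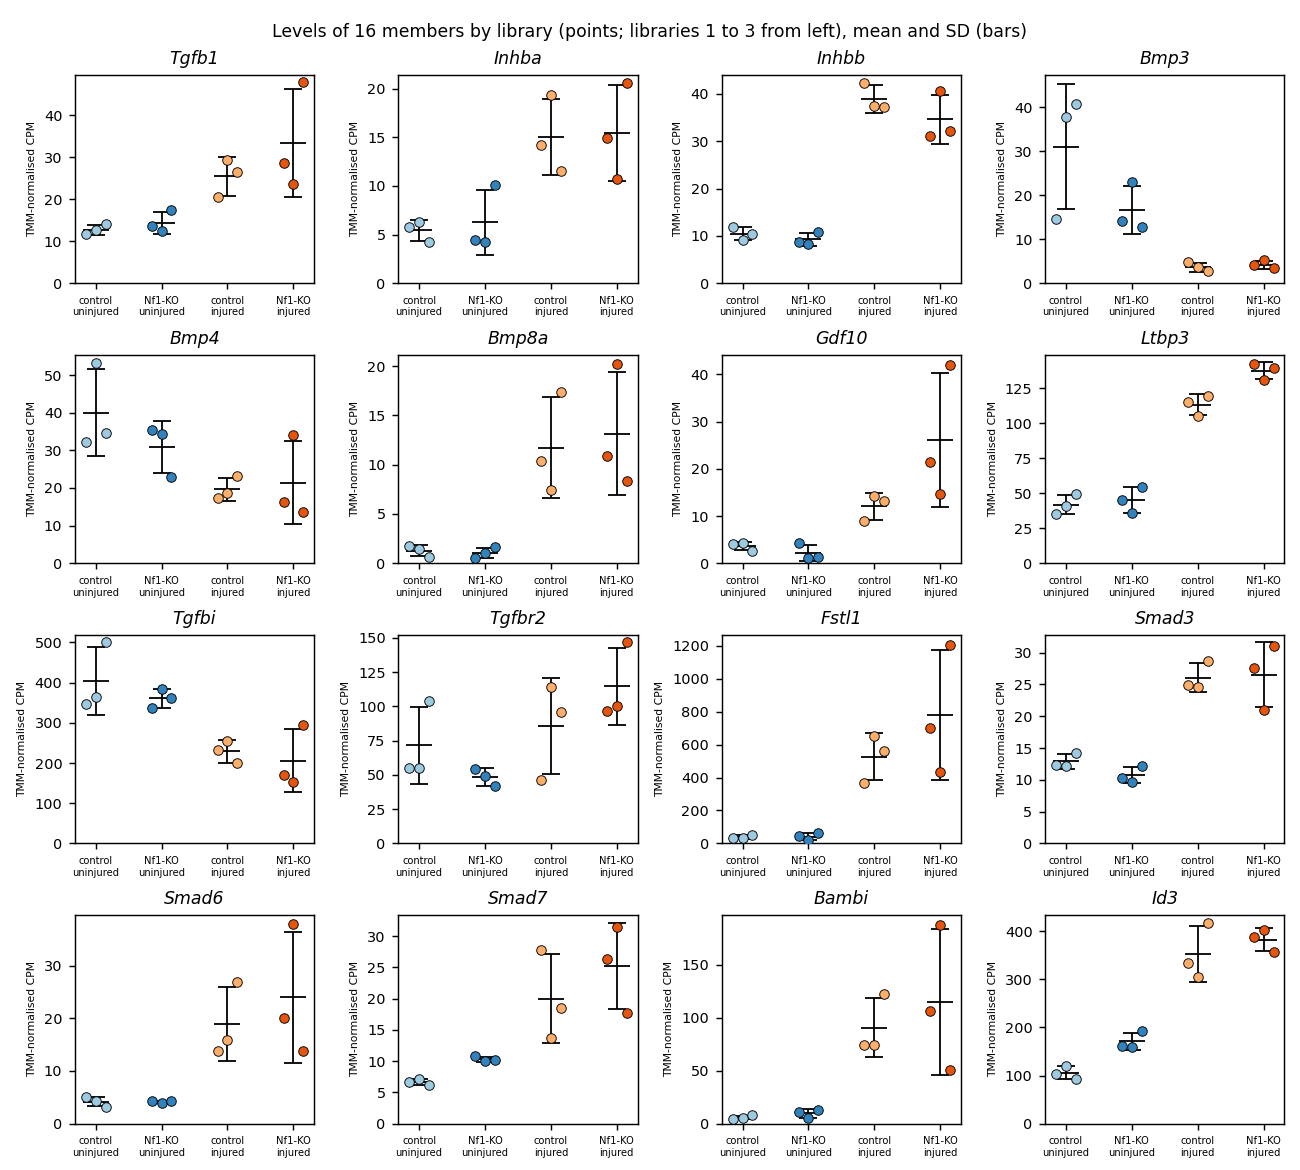
TMM-normalised CPM (vertical axes, each from 0) of 16 members in the 4 groups (horizontal axes). Points are the libraries 1 to 3 from left to right, with mean and SD as bars. Inhbb, Ltbp3 and Id3 show injured libraries clear of uninjured ones with little spread, while Gdf10, Fstl1 and Bambi show a wide spread among the Nf1-KO injured libraries.

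The 8 BMP ligands moved in both directions. In control skin 4 rose and 2 fell, where 22.8% and 32.5% of all genes were called higher and lower. In Nf1-KO skin 3 rose and 2 fell, where these shares were 19.1% and 18.4%. Bmp8a (chromosome 4, 123312645 to 123343252), a less studied BMP, stood at 1.79, 1.46 and 0.631 CPM in control uninjured and 10.4, 7.41 and 17.4 in control injured libraries. In Nf1-KO skin it stood at 0.538, 0.996 and 1.63 before and 10.9, 20.2 and 8.35 after injury, so that no group of uninjured skin came near an injured one. Bmp8a rose in control (log2 fold change 3.21 ± 0.49, adjusted p = 0.000124) and in Nf1-KO skin (3.63 ± 0.50, adjusted p = 5.33e-05). In uninjured libraries the background would account for 17.4% to 52.8% of its signal. Without control uninjured libraries 1 and 2 the value in control skin was larger (log2 4.198, adjusted p = 0.00516). Bmp3 (chromosome 5, 98854415 to 98884396), a ligand that opposes other BMPs in bone, moved the other way. It stood at 14.7, 37.8 and 40.7 CPM in control uninjured and 4.71, 3.61 and 2.67 in control injured libraries, and at 14.2, 23.0 and 12.7 before and 4.04, 5.22 and 3.44 after injury in Nf1-KO skin. All 6 injured libraries were under 6 CPM and all 6 uninjured ones were at 12.7 or more. Bmp3 fell in control (log2 fold change -3.09 ± 0.38 SE, adjusted p = 2.01e-05) and in Nf1-KO skin (-1.97 ± 0.37, adjusted p = 0.000709).

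Gdf10 (chromosome 14, 33923587 to 33937983), also called BMP3B and close to Bmp3 in sequence, rose where Bmp3 fell. It stood at 4.04, 4.37 and 2.65 CPM in control uninjured and 8.89, 14.2 and 13.2 in control injured libraries, and at 4.21, 1.07 and 1.36 before and 21.4, 14.7 and 42.1 after injury in Nf1-KO skin. Nf1-KO injured library 3 was the highest of the 12 and Nf1-KO uninjured library 1 stood apart from the other libraries of its group. Gdf10 rose in control (log2 fold change 1.72 ± 0.46, adjusted p = 0.00619) and in Nf1-KO skin (3.56 ± 0.50, adjusted p = 9.26e-05). The Nf1-KO value was larger without Nf1-KO uninjured library 1 (log2 4.38, adjusted p = 1.22e-05), and the call in control skin ended without control uninjured libraries 1 and 2 (log2 2.19, adjusted p = 0.059). In the uninjured libraries background would account for 14.6% to 90.04% of the Gdf10 signal.

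Bmp4, a ligand of the dermal papilla at the base of the hair follicle, stood at 32.2, 53.3 and 34.6 CPM in control uninjured and 17.3, 18.6 and 23.1 in control injured libraries. In Nf1-KO skin the groups overlapped, at 35.4, 34.3 and 22.9 before and 16.4, 34.0 and 13.7 after injury. Bmp4 was called lower in control skin (log2 fold change -1.02 ± 0.31 SE, adjusted p = 0.0106) and not called in Nf1-KO skin (-0.53 ± 0.31, adjusted p = 0.179). The call ended without control uninjured library 2 (log2 -0.76, adjusted p = 0.0683), and with the ribosomal RNA-like covariate it ended as well (log2 -0.01, adjusted p = 0.985). Bmp7 had 25.5 to 44.2 CPM in control uninjured and 43.6 to 59.1 in control injured libraries, an overlap of 1 library. It was called there (0.69 ± 0.22, adjusted p = 0.0163) but not without control injured library 1 (log2 0.61, adjusted p = 0.0531) or control uninjured library 2 (log2 0.59, adjusted p = 0.0778), and had log2 0.53 ± 0.22, adjusted p = 0.0718 in Nf1-KO skin. Per exonic kb Bmp4 was the highest BMP ligand in control uninjured skin, at 17.8 ± 5.14 CPM per kb beside 8.07 ± 2.56 for Bmp7 (SD, n = 3). In control injured skin the order was turned, with 13.0 ± 1.98 for Bmp7 and 8.75 ± 1.36 for Bmp4.

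Bmp6, a ligand made by differentiating keratinocytes, ran from 3.22 to 5.36 CPM in control uninjured and from 8.55 to 11.1 in control injured libraries. It rose in control (1.17 ± 0.31, adjusted p = 0.00459) and in Nf1-KO skin (0.93 ± 0.30, adjusted p = 0.0249). The Nf1-KO call ended without Nf1-KO injured library 1 (log2 0.93, adjusted p = 0.0642), uninjured library 1 (log2 0.90, adjusted p = 0.0701) or uninjured library 2 (log2 0.68, adjusted p = 0.13), and the control call ended without control uninjured libraries 1 and 2 together (log2 0.90, adjusted p = 0.141). Of its exonic bases, 5.74% are shared with Txndc5. Bmp2, a ligand of the hair matrix, was called lower in Nf1-KO skin at the very threshold (-0.74 ± 0.28, adjusted p = 0.0496), with overlapping groups of 39.0, 22.2 and 42.1 before and 19.6, 27.5 and 14.5 after injury CPM. That call ended in 14 of 22 alternatives. It ended without Nf1-KO injured library 1 (log2 -0.66, adjusted p = 0.16) or 3 (log2 -0.54, adjusted p = 0.131) and without Nf1-KO uninjured library 1 (log2 -0.65, adjusted p = 0.129) or 3 (log2 -0.55, adjusted p = 0.185). Leaving out control injured library 1, 2 or 3, or control uninjured library 1 or 2, which enter only through the shared spread and scaling, ended it at adjusted p = 0.0638, 0.0779, 0.0775, 0.0507 and 0.064. Bmp5 was near the limit of detection, at 0.178 to 2.84 CPM over the 12 libraries, and shares 46.7% of its exonic bases with Gm26903. It was not called in either genotype.

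In the latent binding and matrix group, Ltbp3 rose and Tgfbi fell in both genotypes, while Ltbp1, Ltbp2 and Ltbp4 were not called in either. Of all genes tested, 15.8% rose in both, 16.2% fell in both and 39.2% were called in neither. Ltbp3 (chromosome 19, 5740904 to 5758532) encodes a latent TGF-beta binding protein that helps secrete and store the ligand. It stood at 35.4, 41.2 and 49.2 CPM in control uninjured and 115, 105 and 119.7 in control injured libraries, and at 45.3, 36.1 and 54.7 before and 143, 131 and 139 after injury in Nf1-KO skin. All 6 injured libraries were at 105 CPM or more and none of the uninjured ones passed 54.7. The increase was 2.70-fold in control (log2 fold change 1.43 ± 0.19 SE, adjusted p = 3.97e-05) and 3.03-fold in Nf1-KO skin (1.60 ± 0.19, adjusted p = 1.31e-05). Tgfbi (chromosome 13, 56609523 to 56639562) encodes a secreted matrix protein first found as a gene that TGF-beta induces. Its levels were 346, 364 and 500.1 CPM in control uninjured and 232, 256 and 199.9 in control injured libraries, and 338, 384 and 361 before and 169.9, 152 and 295 after injury in Nf1-KO skin. The groups did not overlap, but Nf1-KO injured library 3 came close to the uninjured range. Tgfbi fell in control (log2 fold change -0.82 ± 0.25 SE, adjusted p = 0.0108) and Nf1-KO skin (-0.81 ± 0.25, adjusted p = 0.0179). The control call ended without control injured library 3 (log2 -0.68, adjusted p = 0.0683) or control uninjured library 3 (log2 -0.52, adjusted p = 0.0893), and the Nf1-KO call without Nf1-KO injured library 1 (log2 -0.65, adjusted p = 0.109). In control uninjured skin Tgfbi had the highest level per exonic kb of all 52 members, at 107 ± 22.4 CPM per kb (SD, n = 3), beside 58.8 ± 7.51 for Id3. In Nf1-KO uninjured skin Tgfbi (95.7 ± 6.10) and Id3 (95.7 ± 9.88) did not differ beyond their spread. The 3 uncalled LTBP genes had log2 fold changes from -0.01 (Ltbp2 in control) to 0.62 (Ltbp1 in Nf1-KO), and Ltbp4 was the most abundant of the family per kb at 25.5 ± 5.18 in control uninjured skin. Ltbp2 shares 9.34% of its exonic bases with D030025P21Rik.

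**Figure D3:**
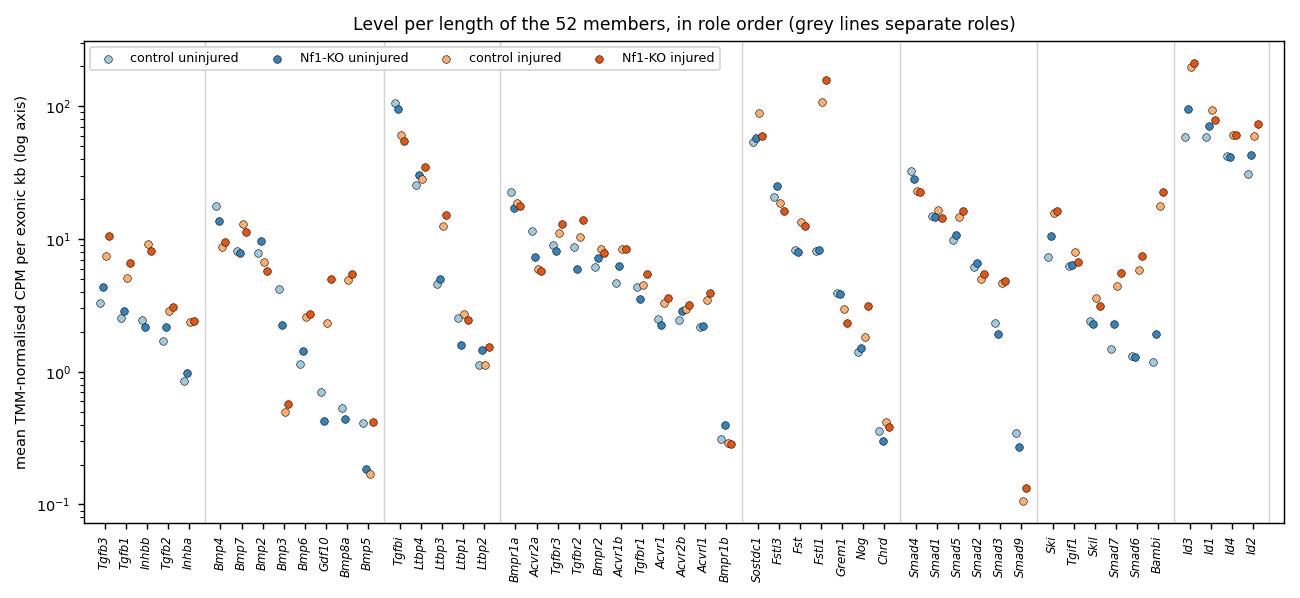
Mean TMM-normalised CPM per exonic kb (vertical axis, log scale) of the 52 members (horizontal axis, by role and falling level in control uninjured skin) in the 4 groups. Tgfbi leads in control uninjured skin, while Id3 and Fstl1 reach the highest levels in injured skin, and Bmp5, Bmpr1b, Chrd and Smad9 lie lowest.

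Of the 11 receptor genes, none was called in both genotypes, where 15.8% of all genes tested rose in both and 16.2% fell in both. In control skin 2 were higher and 1 lower, where 22.8% and 32.5% of all genes were called higher and lower. In Nf1-KO skin 3 were higher, where 19.1% of all genes were called higher and 18.4% lower. Tgfbr2, the type II receptor that binds TGF-beta, stood at 55.1, 55.3 and 104 CPM in control uninjured and 46.5, 114 and 96.0 in control injured libraries. In Nf1-KO skin it stood at 54.7, 49.0 and 41.6 before and 96.5, 100.4 and 147 after injury. The control groups overlapped, with uninjured library 3 high and injured library 1 low, while the Nf1-KO groups were apart. Tgfbr2 was called in Nf1-KO skin (log2 fold change 1.24 ± 0.32 SE, adjusted p = 0.0076), kept that call in all 22 alternatives, and was not called in control skin (0.26 ± 0.31, adjusted p = 0.503). The difference between both responses was 0.99 ± 0.44, adjusted p = 0.459. Tgfbr3, the co-receptor betaglycan, had 47.4 to 60.0 CPM in Nf1-KO uninjured and 65.0 to 119.7 in Nf1-KO injured libraries (0.68 ± 0.23, adjusted p = 0.0324). That call ended without Nf1-KO injured library 3 (log2 0.36, adjusted p = 0.181), uninjured library 2 (log2 0.62, adjusted p = 0.0921) or uninjured library 3 (log2 0.63, adjusted p = 0.0822). Acvr1, a type I receptor for BMPs and activin A, had 8.81 to 12.6 and 14.6 to 19.8 CPM in these groups (0.69 ± 0.23, adjusted p = 0.0281). Its call ended without Nf1-KO injured library 2 (log2 0.58, adjusted p = 0.076), uninjured library 1 (log2 0.69, adjusted p = 0.0616) or uninjured library 2 (log2 0.53, adjusted p = 0.133).

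In control skin, Acvr2a, a type II receptor of activins and BMPs, fell from 51.0, 63.5 and 80.1 CPM in uninjured to 32.4, 35.8 and 33.9 in injured libraries (log2 fold change -0.93 ± 0.20 SE, adjusted p = 0.00118). The Nf1-KO groups overlapped, at 43.6, 48.2 and 32.9 before and 30.0, 34.99 and 33.0 after injury CPM (-0.35 ± 0.20, adjusted p = 0.168), and the 3 Nf1-KO uninjured libraries were all under the control uninjured ones. The ribosomal RNA-like covariate ended the call in control skin (log2 -0.53, adjusted p = 0.179), and 7.84% of the exonic bases of Acvr2a are shared with Orc4. Acvr1b, the type I activin receptor, stood at 23.8, 21.4 and 16.6 CPM in control uninjured and 52.5, 25.6 and 32.9 in control injured libraries (0.85 ± 0.27, adjusted p = 0.0137). Injured library 1 was well above the others, its removal ended the call (log2 0.54, adjusted p = 0.0884), and the ribosomal RNA-like covariate turned the direction (log2 -0.22, adjusted p = 0.587). Bmpr2, the type II BMP receptor, had 98.2 to 118 and 139.8 to 156 CPM in the control groups, a small change (0.44 ± 0.17, adjusted p = 0.0424). The Bmpr2 call ended without control injured library 1 (log2 0.44, adjusted p = 0.0802) or 3 (log2 0.47, adjusted p = 0.0833), without control uninjured library 2 (log2 0.48, adjusted p = 0.0776) and with median-of-ratios scaling (log2 0.37, adjusted p = 0.0658). The other 5 receptor genes, Tgfbr1, Bmpr1a, Bmpr1b, Acvr2b and Acvrl1, were not called in either genotype, with log2 fold changes from -0.53 (Bmpr1b in Nf1-KO) to 0.83 (Acvrl1 in Nf1-KO). Bmpr1a, the type I BMP receptor of the hair follicle and epidermis, had the highest mean of the receptors per exonic kb in each group, at 22.4 ± 4.54 CPM per kb in control uninjured and 18.5 ± 1.20 in control injured skin. In Nf1-KO injured skin Bmpr1a (17.7 ± 6.07) overlapped within SD with Tgfbr2 (14.0 ± 3.42) and Tgfbr3 (13.0 ± 4.63). Bmpr1b was the least abundant and stood near background, which would account for 28.9% to 67.6% of its signal in uninjured libraries.

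Of the 7 extracellular antagonists, only Fstl1 was called in both genotypes, and its change was the largest of any member in Nf1-KO skin. Among all genes tested, 15.8% rose in both, 16.2% fell in both and 39.2% were called in neither. Fstl1 (chromosome 16, 37776873 to 37836514) encodes a secreted follistatin-like glycoprotein of mesenchymal cells that can bind BMP4. It stood at 31.3, 34.5 and 53.3 CPM in control uninjured and 369, 649.5 and 559 in control injured libraries. Nf1-KO skin went from 43.1, 18.8 and 60.8 to 701, 434 and 1207. The lowest injured library was at 369 CPM and the highest uninjured one at 60.8. Fstl1 rose 13.2-fold in control (log2 fold change 3.73 ± 0.47 SE, adjusted p = 6.87e-05) and 19.1-fold in Nf1-KO skin (4.26 ± 0.48, adjusted p = 2.78e-05). The ribosomal RNA-like covariate lowered the control value of Fstl1 and kept the call (log2 3.13, adjusted p = 0.0213). Sostdc1, an antagonist of BMP and WNT signals in hair follicles, stood at 111, 94.7 and 83.6 CPM in control uninjured and 149, 146 and 183 in control injured libraries. Its Nf1-KO levels of 87.6, 81.3 and 137 before and 102, 122 and 97.5 after injury overlapped. Sostdc1 was called in control skin (log2 fold change 0.73 ± 0.21 SE, adjusted p = 0.00935), not in Nf1-KO skin (0.07 ± 0.21, adjusted p = 0.81), and the control call ended without control uninjured libraries 1 and 2 (log2 0.93, adjusted p = 0.0545). Fstl3, which binds activins, was called lower in Nf1-KO skin (-0.64 ± 0.18, adjusted p = 0.0114), where it had 55.6, 54.6 and 75.5 CPM before and 36.5, 43.9 and 38.6 after injury. The Fstl3 call ended without Nf1-KO injured library 1 (log2 -0.54, adjusted p = 0.0903) or uninjured library 3 (log2 -0.45, adjusted p = 0.0657), and 47.3% of its exonic bases are shared with Prss57. Fst, Nog, Chrd and Grem1, the textbook antagonists of activins and BMPs, were not called in either genotype. Their log2 fold changes ran from -0.74 (Grem1 in Nf1-KO) to 1.06 (Nog in Nf1-KO, adjusted p = 0.0614).

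Among the 6 SMAD genes, Smad3 and Smad5 rose in both genotypes and Smad1, Smad2 and Smad4 were not called in either. Of all genes tested, 15.8% rose in both and 39.2% were called in neither. Smad3, an effector of TGF-beta and activin, stood at 12.3, 12.2 and 14.3 CPM in control uninjured and 24.9, 24.6 and 28.7 in control injured libraries. The Nf1-KO libraries had 10.3, 9.73 and 12.1 before and 27.6, 20.95 and 31.1 after injury. No injured library overlapped an uninjured one, and Smad3 rose 2.01-fold in control (log2 fold change 1.01 ± 0.20 SE, adjusted p = 0.000889) and 2.48-fold in Nf1-KO skin (1.31 ± 0.21, adjusted p = 0.000175). The Nf1-KO call held in all 22 alternatives, and the control call ended without control uninjured libraries 1 and 2 (log2 0.87, adjusted p = 0.0561). Smad2, its partner in the same arm, had log2 fold changes of -0.30 ± 0.22, adjusted p = 0.266 in control and -0.29 ± 0.22, adjusted p = 0.322 in Nf1-KO skin. Smad5, an effector of BMPs, had 58.4, 69.8 and 90.4 CPM in control uninjured and 122, 88.7 and 113 in control injured libraries, which overlapped (0.57 ± 0.20, adjusted p = 0.0226), and a log2 fold change of 0.59 ± 0.20, adjusted p = 0.0284 in Nf1-KO skin. Its control call ended without control injured library 1 (log2 0.49, adjusted p = 0.0754) or 3 (log2 0.58, adjusted p = 0.0568) or uninjured library 2 (log2 0.54, adjusted p = 0.0761). Its Nf1-KO call ended without Nf1-KO injured library 1 (log2 0.59, adjusted p = 0.0797), uninjured library 1 (log2 0.53, adjusted p = 0.0963) or 2 (log2 0.53, adjusted p = 0.101) and with median-of-ratios scaling (log2 0.49, adjusted p = 0.0534).

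Smad9, the third BMP effector, was the scarcest SMAD gene, with 3 to 33 counts per control library. It was called lower in control skin (-1.64 ± 0.58, adjusted p = 0.0241) at levels where background would account for 38.9% to 74.8% of the uninjured signal. Once that background was subtracted the call ended (log2 -0.62, adjusted p = 0.5), as it did without control injured library 1 (log2 -1.31, adjusted p = 0.0913) or 2 (log2 -1.49, adjusted p = 0.0745) and without control uninjured library 1 (log2 -1.51, adjusted p = 0.0644), 2 (log2 -1.33, adjusted p = 0.118) or both (log2 -0.79, adjusted p = 0.475). Smad4, the shared partner, had a log2 fold change of -0.50 ± 0.21, adjusted p = 0.0514 in control skin with groups that did not overlap, and -0.32 ± 0.21, adjusted p = 0.226 in Nf1-KO skin. Smad4 was called in control skin in several alternatives, among them DESeq2, limma voom, median-of-ratios scaling, a replicate block and background subtraction. Smad1, the remaining BMP effector, had log2 fold changes of 0.16 ± 0.22, adjusted p = 0.558 in control and -0.02 ± 0.22, adjusted p = 0.951 in Nf1-KO skin. Per exonic kb Smad4 had the highest mean of the SMAD genes in each group, at 32.6 ± 4.73 CPM per kb in control uninjured and 23.1 ± 3.56 in control injured skin. In Nf1-KO injured skin Smad4 (22.7 ± 5.57) overlapped within SD with Smad5 (16.2 ± 1.53) and Smad1 (14.5 ± 5.15).

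Of the 6 intracellular antagonists, 5 rose in control skin and 4 in Nf1-KO skin, where 22.8% and 19.1% of all genes were called higher. Their median log2 fold changes were 1.34 and 0.96. Bambi encodes a membrane pseudoreceptor that blocks type I receptors. It stood at 4.70, 5.60 and 7.76 CPM in control uninjured and 74.5, 74.7 and 123 in control injured libraries, and at 11.1, 5.13 and 13.3 before and 107, 188 and 51.0 after injury in Nf1-KO skin. Every injured library was above every uninjured one, and Nf1-KO injured libraries 2 and 3 held the highest and the lowest injured level. Bambi rose 14.9-fold in control (log2 fold change 3.90 ± 0.50 SE, adjusted p = 0.000144), the largest change of any member there, and 11.7-fold in Nf1-KO skin (3.55 ± 0.49, adjusted p = 0.000251). Smad6 (chromosome 9, 63953076 to 64022059), the inhibitory SMAD of the BMP arm, had 4.98, 4.37 and 3.22 CPM in control uninjured and 13.9, 15.9 and 26.9 in control injured libraries, and 4.30, 3.83 and 4.25 before and 20.1, 37.9 and 13.9 after injury in Nf1-KO skin. No uninjured library passed 4.98 CPM and no injured one was under 13.9. Smad6 rose in control (2.18 ± 0.36, adjusted p = 0.000204) and Nf1-KO skin (2.54 ± 0.36, adjusted p = 6.65e-05). Smad7, the general inhibitory SMAD, went from 6.58, 7.14 and 6.25 to 27.7, 13.7 and 18.6 CPM in control skin (1.58 ± 0.27, adjusted p = 0.000301). Nf1-KO levels went from 10.8, 9.96 and 10.2 to 26.4, 31.4 and 17.7 (1.29 ± 0.27, adjusted p = 0.00165). These 3 inhibitors kept their calls in all 22 alternatives in both genotypes, but the ribosomal RNA-like covariate raised the control values of Bambi (log2 4.70, adjusted p = 0.00619) and Smad6 (log2 3.07, adjusted p = 0.00127).

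Ski, a nuclear co-repressor of SMAD complexes, had 37.6, 42.5 and 41.8 CPM in control uninjured and 96.3, 81.3 and 83.5 in control injured libraries (log2 fold change 1.10 ± 0.20 SE, adjusted p = 0.000381). In Nf1-KO skin it had 53.1, 48.0 and 73.9 before and 83.2, 79.0 and 107 after injury (0.62 ± 0.19, adjusted p = 0.0197), where uninjured library 3 came close to the injured ones. The Nf1-KO call ended without Nf1-KO injured library 3 (log2 0.50, adjusted p = 0.0576), uninjured library 1 (log2 0.54, adjusted p = 0.0747) or uninjured library 2 (log2 0.48, adjusted p = 0.102), and with the ribosomal RNA-like covariate the control call ended (log2 0.61, adjusted p = 0.0847). Skil, its relative, was called in control skin with overlapping groups of 16.2 to 32.8 and 30.8 to 39.9 CPM (0.56 ± 0.23, adjusted p = 0.0481). The Skil call ended with DESeq2 (log2 0.52, adjusted p = 0.0839), without control injured library 1 (log2 0.47, adjusted p = 0.139) or 3 (log2 0.63, adjusted p = 0.0701) and without control uninjured library 1 (log2 0.46, adjusted p = 0.106) or 2 (log2 0.50, adjusted p = 0.144). Tgif1, a homeodomain co-repressor, was not called (0.36 ± 0.21, adjusted p = 0.16 in control, 0.08 ± 0.21, adjusted p = 0.778 in Nf1-KO).

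The ID genes encode helix-loop-helix proteins that lack a DNA-binding region and are direct targets of BMP-activated SMADs. In control skin 3 of 4 rose, and in Nf1-KO skin 2 of 4, where 22.8% and 19.1% of all genes were called higher. Id3 (chromosome 4, 136143497 to 136145755) stood at 103, 119.7 and 92.9 CPM in control uninjured and 335, 305 and 418 in control injured libraries, and at 162, 160.0 and 192 before and 389, 403 and 356 after injury in Nf1-KO skin. The groups were ordered without overlap, from control uninjured over Nf1-KO uninjured to the injured groups, which overlapped each other. Id3 rose 3.35-fold in control (log2 fold change 1.74 ± 0.20 SE, adjusted p = 9.52e-06) and 2.23-fold in Nf1-KO skin (1.16 ± 0.19, adjusted p = 0.000277). Id2 (chromosome 12, 25093799 to 25097140) went from 74.2, 78.3 and 75.5 to 136, 135 and 163 CPM in control and from 111, 86.7 and 115 to 156, 179 and 203 in Nf1-KO skin, again without overlap between uninjured and injured libraries. Id2 rose in control (0.93 ± 0.18, adjusted p = 0.000725) and Nf1-KO skin (0.78 ± 0.18, adjusted p = 0.00357). Both Id2 and Id3, whose promoters are printed above, kept their calls in all 22 alternatives. Id1 was called in control skin, from 64.2, 79.7 and 60.3 to 104, 99.2 and 125 CPM (0.68 ± 0.18, adjusted p = 0.00546), and not in Nf1-KO skin, at 79.3, 75.2 and 94.2 before and 97.9, 98.0 and 78.2 after injury (0.14 ± 0.18, adjusted p = 0.561). The ribosomal RNA-like covariate ended the Id1 call (log2 0.70, adjusted p = 0.0721). Id4 was not called, with log2 fold changes of 0.52 ± 0.24, adjusted p = 0.0742 and 0.55 ± 0.24, adjusted p = 0.0832. Per exonic kb Id3 was the most abundant member in both injured groups, at 197 ± 32.6 CPM per kb in control and 214 ± 13.4 in Nf1-KO skin, ahead of Fstl1 at 107 ± 29.1 and 159 ± 79.9. In Nf1-KO injured skin these levels overlapped within their SD (n = 3).

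Levels also differed among the 6 injured libraries. Members chosen after their values were seen are given beside the marker sums as a description. The hair follicle marker sum was highest in Nf1-KO injured library 2 (35543 CPM) and lowest in Nf1-KO injured library 3 (11118 CPM). Bambi, Smad6, Bmp4 and Bmpr1a were also highest in library 2. Bambi (51.0 CPM), Bmp4 and Bmpr1a were lowest in library 3, while Smad6 was at 13.9 CPM both there and in control injured library 1. The dermal matrix sum was highest in Nf1-KO injured library 3 (16957 CPM) and lowest in control injured library 1 (5595 CPM). Fstl1, Tgfbr2 and Gdf10 were highest and lowest in these same libraries. Tgfb3 was also highest in Nf1-KO injured library 3, but lowest in Nf1-KO injured library 2 (16.9 CPM). Between these extremes the order differed, since control injured library 2 had a matrix sum of 16350 CPM with Gdf10 at 14.2 CPM, and Nf1-KO injured library 1 had 10090 CPM with Gdf10 at 21.4. Nf1-KO injured library 3 was the highest injured library for 17 members (32.7%), beside 37.1% of all genes tested, and Nf1-KO injured library 2 for 14 members (26.9%), beside 21.7%. The part of tissue composition in the injury contrasts was not tested.

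**Figure D4:**
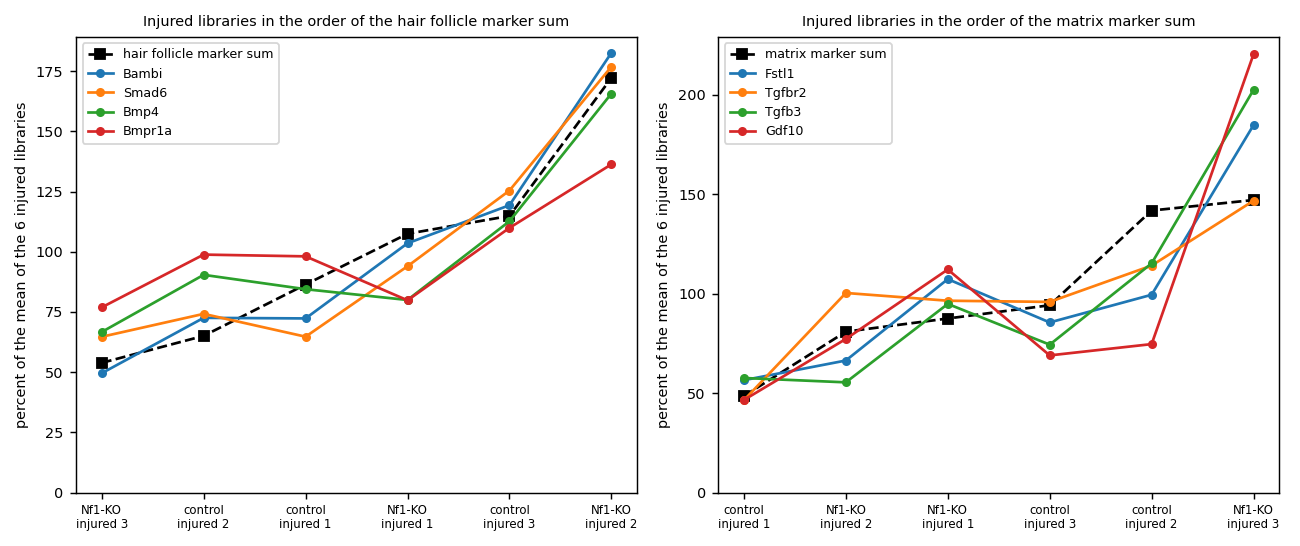
Levels in the 6 injured libraries as percent of their mean (vertical axes), ordered along the horizontal axes by the hair follicle marker sum (left) and the dermal matrix marker sum (right), both as dashed lines. The members drawn were chosen after their values were seen. Bambi, Smad6, Bmp4 and Bmpr1a are highest where the follicle sum is highest. Fstl1, Tgfbr2 and Gdf10 are highest in Nf1-KO injured library 3 and lowest in control injured library 1. Tgfb3 is also highest in Nf1-KO injured library 3 but lowest in Nf1-KO injured library 2.

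No member was called between the genotypes in comparisons that use the same libraries as the injury contrasts. In uninjured skin 0 of 52 members passed edgeR's threshold, where 0.0296% of all genes did, and 7 members had an unadjusted p under 0.05 (6 with DESeq2, which also called 0). That is 13.5% of the members, beside 8.34% of all genes in edgeR at that p. The 7 were Id3, Acvr2a, Ski, Bmp3, Id2, Ltbp1 and Smad7, and the smallest adjusted p among all members was 0.448. Id3 had 162, 160.0 and 192 CPM in Nf1-KO and 103, 119.7 and 92.9 in control uninjured libraries, a log2 difference of 0.70 ± 0.19, adjusted p = 0.448, with no overlap between the groups. Id2 (0.46 ± 0.18, adjusted p = 0.543), Ski (0.52 ± 0.19, adjusted p = 0.537) and Smad7 (0.63 ± 0.27, adjusted p = 0.565) also had every Nf1-KO library above every control one. Acvr2a (-0.64 ± 0.20, adjusted p = 0.51) and Ltbp1 (-0.67 ± 0.27, adjusted p = 0.543) had every Nf1-KO library under every control one, and Bmp3 (-0.90 ± 0.34, adjusted p = 0.537) overlapped. These members were picked by their unadjusted p, and the share of all genes with such separated groups was not counted. The separation is therefore given as a description only. The median log2 difference of the members was 0.02, beside -0.04 over all genes. Background differed between these libraries too, at 0.332, 0.263 and 0.0944 CPM per kb in control and 0.131, 0.206 and 0.110 in Nf1-KO libraries, and its part in these differences was not tested.

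In injured skin 0 of 52 members were called between genotypes, as were 0% of all genes, and 2 members had an unadjusted p under 0.05 in edgeR and 2 in DESeq2, which called 0 members as well. These 2 are 3.85% of the members, beside 10.7% of all genes in edgeR. Sostdc1 had 102, 122 and 97.5 CPM in Nf1-KO and 149, 146 and 183 in control injured libraries, a log2 difference of -0.57 ± 0.21, adjusted p = 0.372. Gdf10 had 21.4, 14.7 and 42.1 and 8.89, 14.2 and 13.2 CPM, a log2 difference of 1.10 ± 0.44, adjusted p = 0.395. Neither gene's groups overlapped, a separation that was not counted over all genes, and both adjusted p-values were far from the threshold. The median of the members was 0.10 and that of all genes 0.12.

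**Figure D5:**
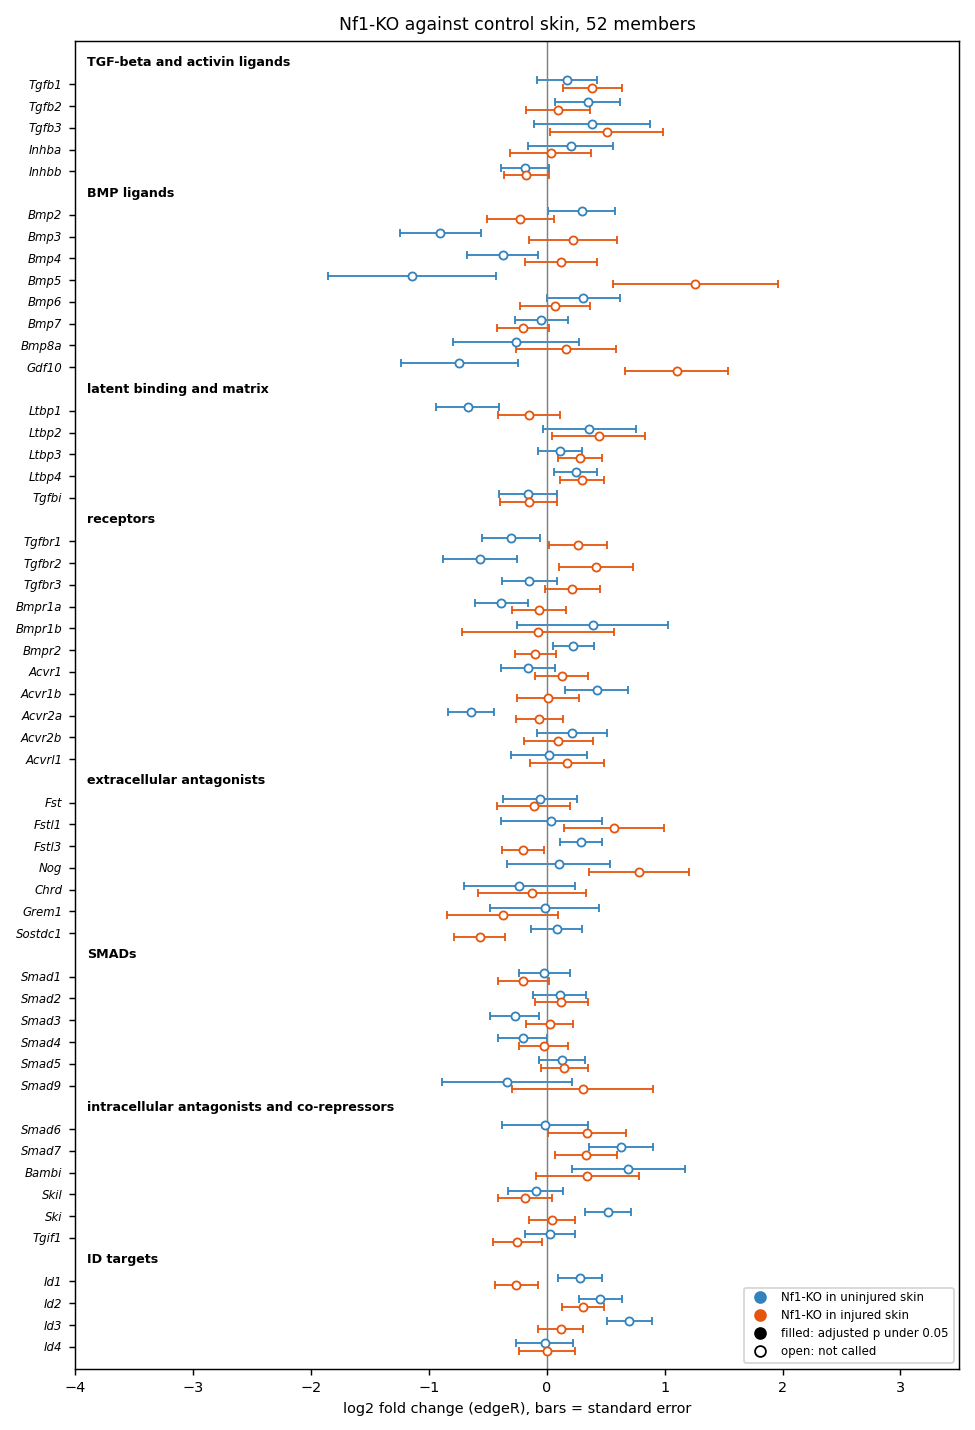
Log2 fold change (horizontal axis) of Nf1-KO against control skin for each of the 52 members (vertical axis, grouped by role), in uninjured skin (blue) and injured skin (orange), with standard errors as bars. All points are open because none was called, and the values run from -1.14 for Bmp5 in uninjured skin to 1.26 for Bmp5 in injured skin.

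The injury responses of both genotypes were compared by the interaction term of the same fit. With edgeR 0 of 52 members and 0% of all genes were called, and 6 members had an unadjusted p under 0.05 (7 with DESeq2, which called 0 members). These 6 are 11.5% of the members, near the 10.8% of all genes in edgeR. The smallest adjusted p belonged to Gdf10, with a log2 difference of 1.84 ± 0.66, adjusted p = 0.442 towards a larger increase in Nf1-KO skin. Without a filter on low counts this 1 member was called (log2 1.67, adjusted p = 0.0392). Bmp5 (2.40 ± 1.00, adjusted p = 0.45), Bmp3 (1.12 ± 0.51, adjusted p = 0.459), Tgfbr2 (0.99 ± 0.44, adjusted p = 0.459), Sostdc1 (-0.65 ± 0.30, adjusted p = 0.461) and Id3 (-0.58 ± 0.27, adjusted p = 0.462) followed. Members called in 1 genotype alone, such as Acvr2a, Bmp4, Id1 and Tgfbr2, are therefore not shown to respond differently.

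Other genes of the pathway were taken from a list of 63, of which 52 passed the filter. In control skin 18 rose and 11 fell, in Nf1-KO skin 16 rose and 7 fell, and the median log2 fold changes were 0.26 and 0.35. Over all genes 22.8% were called higher and 32.5% lower in control skin and 19.1% and 18.4% in Nf1-KO skin, with medians of -0.21 and -0.09. Of the 6 target genes tested, 4 rose in each genotype, and their median log2 fold changes were 3.02 and 3.11. Msx1, a homeobox gene downstream of BMPs, stood at 2.35, 2.84 and 0.694 CPM in control uninjured and 48.5, 39.3 and 58.1 in control injured libraries (log2 fold change 4.66 ± 0.49 SE, adjusted p = 2.03e-05), and rose in Nf1-KO skin as well (3.9996 ± 0.47, adjusted p = 4.12e-05). Msx2, its relative, which is also one of the 19 hair follicle markers, rose in control (3.96 ± 0.30, adjusted p = 3.12e-07) and Nf1-KO skin (3.58 ± 0.30, adjusted p = 4.49e-07). Pmepa1, a TGF-beta target that damps SMAD2 and SMAD3, went from 9.59, 7.29 and 22.9 to 289, 196 and 205 CPM in control skin (log2 fold change 4.11 ± 0.61 SE, adjusted p = 0.000414) and rose in Nf1-KO skin (3.93 ± 0.60, adjusted p = 0.000676).

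Genes that release or capture ligands moved in both directions. Bmp1, a protease that frees latent TGF-beta and cleaves chordin, rose in control (log2 fold change 1.85 ± 0.27 SE, adjusted p = 8.21e-05) and Nf1-KO skin (2.29 ± 0.27, adjusted p = 1.26e-05). Cd109, a membrane protein that binds TGF-beta and dampens its signal, fell in both (-1.61 ± 0.23, adjusted p = 6.22e-05 and -1.84 ± 0.23, adjusted p = 1.83e-05). Thbs1, an activator of latent TGF-beta, was called in Nf1-KO skin (1.74 ± 0.28, adjusted p = 0.000217) and not in control skin (0.23 ± 0.27, adjusted p = 0.487). Of the BMP co-receptors, Rgmb fell (-2.13 ± 0.20, adjusted p = 1.67e-06 in control, -1.73 ± 0.19, adjusted p = 6.47e-06 in Nf1-KO) and Rgma rose (1.74 ± 0.28, adjusted p = 0.000168 and 1.39 ± 0.27, adjusted p = 0.00109). Of the antagonists, Bmper rose (1.505 ± 0.39, adjusted p = 0.00414 and 3.23 ± 0.42, adjusted p = 2.63e-05) and Twsg1 fell (-1.30 ± 0.25, adjusted p = 0.000643 and -1.07 ± 0.25, adjusted p = 0.00365). Fkbp1a, whose product binds type I receptors and keeps them silent, rose in control (1.58 ± 0.20, adjusted p = 2.38e-05) and Nf1-KO skin (1.44 ± 0.20, adjusted p = 4.86e-05). Of the 12 further ligands that passed the filter, none rose in control skin and 3 fell, and in Nf1-KO skin 1 rose and 3 fell. Bmp10 and Inhbe, lower in both, had 0 counts in every control injured library and at most 21 in an uninjured one, so their uninjured levels of 0.252 to 1.88 CPM (Inhbe) and 0.271 to 1.79 CPM (Bmp10) are given without a fold. Background would account for 50.1% to 195% of the uninjured Inhbe signal and 69.1% to 195% of that of Bmp10. The ribosomal RNA-like covariate ended the calls of Inhbe (adjusted p = 0.0546 in control, 0.176 in Nf1-KO) and Bmp10 (0.125 and 0.254). Removal of control uninjured libraries 1 and 2 ended both control calls (adjusted p = 0.0684 for Inhbe, 0.0612 for Bmp10). The Nf1-KO call of Bmp10 also ended without Nf1-KO uninjured library 1 (adjusted p = 0.0517) or 2 (0.058) and without Nf1-KO injured library 1 (0.0634). The ribosomal RNA-like covariate ended the control calls of Rgma (log2 0.79, adjusted p = 0.0767), Bmper (log2 1.44, adjusted p = 0.0962) and Twsg1 (log2 -0.48, adjusted p = 0.236), and the Nf1-KO call of Twsg1 (log2 -0.49, adjusted p = 0.166). Without control uninjured libraries 1 and 2 the control call of Bmper ended too (log2 1.80, adjusted p = 0.0503).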

How the data were processed

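The deposited files hold raw read counts for Ensembl gene IDs, 1 column for each library, per the file headers. Per the labels' protocols, cDNA was amplified from 10 ng of total RNA by Smart-Seq v4 and made into Nextera XT libraries. The kit does not mark strand, so reads of a gene and of its antisense or overlapping neighbour cannot be told apart. The submitters' processing notes list STAR 2.5.2b, SAMtools, HTSeq 0.5.3, DESeq2, HOMER and mm10 without their roles, while annotation version and strand setting were not given in the sources used here. In the tables, 1 column belongs to no listed sample and was not used. Symbols, coordinates and exonic lengths came from GENCODE M21 (GRCm38, the assembly of mm10), which matched 53274 of 53379 gene IDs.

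A single edgeR 4.0.16 fit held all 12 libraries (4 group means, TMM scaling, default filter with a count minimum of 10, robust quasi-likelihood F test, 2-sided). P-values were adjusted over 23635 genes by the Benjamini-Hochberg method, called under 0.05, and members' rows were then taken. The script was tested on simulated data. Totals of 8817013 to 16809687 counts set the precision, and reads carry no molecular identifiers. Within groups, pairs of libraries differed beyond sampling noise (chi-square per degree of freedom from 9.55 to 87.8 over 12 pairs). All were kept as separate libraries, but this measure covers only the sampling of counts and cannot tell technical repeats from separate animals. Background is the mean level per kb of 1454 receptor genes of the nose, and percent of signal from it is that level times exonic length. The 22 alternatives were other scaling (median of ratios), the unfiltered table, a stricter filter (2 CPM in 3 samples), a replicate block, the compared groups alone, limma voom (3.58.1), DESeq2 1.42.0, a covariate of ribosomal RNA-like share, background subtraction, removal of control uninjured libraries 1 and 2, and each library left out. Leaving out both of these leaves 1 control uninjured library, which is assumed to vary like the other groups. Members, lists and tests were chosen with earlier results of these data known. Members called in a contrast are given in full by smallest p per role and the others by ranges. Up to 4 called genes per role of the wider pathway list are named, of which the text gives a selection, and some are not reported here.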

Additional observations from a re-analysis of the deposited data

How the results depend on the processing

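Of 51 member calls in the injury contrasts, 23 held in all 22 alternatives, 28 ended in 1 or more, and 1 reversed: Acvr1b in control skin with the ribosomal RNA-like covariate (log2 -0.22, adjusted p = 0.587). That covariate, which itself moves with skin state, left 10 members higher and 2 lower in control skin (main counts 23 and 5). In Nf1-KO skin it left 15 members called (main count 23), of which 2 were lower (main count 4). Without control uninjured libraries 1 and 2, 12 were higher and 3 lower in control skin. The cause was not tested, and fewer samples enter the latter fit. With 1 library left out, 18 to 28 members were higher and 3 to 6 lower in control skin, and 13 to 24 higher and 1 to 6 lower in Nf1-KO skin. The lowest counts of lower members came without control uninjured library 2 (3) and without Nf1-KO injured library 1 (1) or uninjured library 3 (2). Without a filter, 1 member, Gdf10, was called in the difference between the responses. Alternatives also added injury calls, among them 5 in control and 7 in Nf1-KO skin without a filter. In control skin Smad4, Tgfb3, Fst, Id4, Acvrl1 and Tgif1 were each added by more than 1 alternative. In Nf1-KO skin this held for Tgfb3, Acvrl1, Tgfbr1, Ltbp1, Bmp7, Nog, Fst and Id4. Both genotype contrasts gave 0 members under all 22 alternatives. Smad9 did not pass the filter of 2 CPM in 3 samples, so it has no value there. Same-numbered libraries correlated from -0.10 to 0.38, so the numbers are not taken to pair them. A fit with a replicate block called 31 members in control skin (28 without it), 24 in Nf1-KO skin (23) and 0 in the other contrasts. Median-of-ratios scaling moved the median of all genes in Nf1-KO skin from -0.09 to -0.20. Background would account for most of the signal of Bmp5, Bmp8a, Bmpr1b, Chrd, Gdf10 and Smad9 in at least 1 uninjured library, and low counts limit the precision of Smad9 (3 to 33 counts per control library).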
